A study of Mus musculus with 9 samples.

Results

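The 7 genes described here encode transcription factors and a coactivator that set the state of vascular smooth muscle cells: Myocd, Srf, Klf4, Klf5, Tcf21, Gata6 and Mef2c. They were chosen by name, as the rows whose Entrez Gene ID maps to these symbols, and all 7 were found among the 18830 genes of the files. The groups were aortas of ApoE knock out mice given angiotensin II (Ang II) by osmotic pump at 1000 ng/kg/min for 28 days, the same for 14 days, and a sham control of the same genotype, with 3 libraries each. Ang II constricts vessels and raises blood pressure, and in mice without apolipoprotein E, which are prone to atherosclerosis, its infusion is a standard way to produce aneurysms of the abdominal aorta. The sources used here do not give the day of the sham aortas, the age and sex of the mice, or whether each sequenced aorta had dilated. The titles of the samples say muscle and the tissue label says aorta.

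In a mature artery, SRF binds DNA elements called CArG boxes, and myocardin joins it there to switch on contractile genes. KLF4 and KLF5 are zinc-finger factors known to oppose this program in injured vessels, and TCF21 is a basic helix-loop-helix factor of cells that leave the contractile state. GATA6 is a zinc-finger factor of quiescent smooth muscle, and MEF2C is a MADS-box relative of SRF that acts upstream of Myocd in the mouse embryo and is also a factor of skeletal muscle, B cells and endothelium.

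Libraries held 9609690 to 14923936 expected counts. Apoe, the targeted gene, was read in all 9 libraries at 22.5 to 648 CPM (the count per 10-to-the-6 counts of the library, with library sizes scaled by the TMM method of edgeR), and the counts do not show which part of it was read. Contractile smooth muscle markers were present in every library, with 7 of 7 detected. Their summed level was 2216 to 6728 CPM at 28 days, 3892 to 17803 CPM at 14 days and 10372 to 31822 CPM in sham. These are whole pieces of aorta, so fewer smooth muscle cells and less RNA per cell cannot be told apart. Transcripts of other tissues differed between libraries. Skeletal muscle markers summed to 133 to 18520 CPM at 28 days, 8.28 to 22.8 CPM at 14 days and 6.51 to 46.7 CPM in sham. Sympathetic nerve and Schwann cell markers summed to 111 to 2624 CPM at 28 days, 46.0 to 2385 CPM at 14 days and 81.0 to 5761 CPM in sham. Cardiac muscle markers summed to 10.6 to 71.9 CPM at 28 days, 8.07 to 60.6 CPM at 14 days and 14.9 to 971 CPM in sham. Brown and white fat markers summed to 12391 to 24478 CPM at 28 days, 5535 to 16904 CPM at 14 days and 16041 to 22483 CPM in sham. They were lowest in 14-day replicate 2. Their sum was above that of the contractile markers in every library except sham replicate 1 and 14-day replicate 1.

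The DNA element at the centre of this network is shown first in the promoter of Srf itself, since SRF is known to act on its own gene. The sequence runs from 250 bases before to 50 bases after the start that RefSeq gives (GRCm38.p6, chr17:46556113-46556412, minus strand), in lower case with CArG boxes in capitals. The other lines are 30-base windows round the CArG boxes found in the same stretch of listed contractile and immediate early target genes: Myl9 (chr2:156775293-156775322, plus strand), Vcl (chr14:20929161-20929190, plus strand) and Egr2 (chr10:67537787-67537816 and chr10:67537484-67537513, plus strand), which has a box before each of 2 starts.
Srf: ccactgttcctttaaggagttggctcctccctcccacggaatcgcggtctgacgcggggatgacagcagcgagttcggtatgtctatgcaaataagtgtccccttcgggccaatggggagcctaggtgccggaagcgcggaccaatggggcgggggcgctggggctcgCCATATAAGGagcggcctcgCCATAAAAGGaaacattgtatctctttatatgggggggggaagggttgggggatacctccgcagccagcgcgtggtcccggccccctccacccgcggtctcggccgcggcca
Myl9: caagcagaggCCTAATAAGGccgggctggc
Vcl: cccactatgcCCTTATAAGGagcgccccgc
Egr2, box a: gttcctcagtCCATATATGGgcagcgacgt
Egr2, box b: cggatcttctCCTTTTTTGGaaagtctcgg

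The search used the 10-base CArG box, which is CC, 6 bases of A or T, and GG, with no mismatch allowed. It was read on both strands, which are equivalent for this palindromic pattern. The Srf window held 2 boxes, which begin 82 and 62 bases before the start. Of the members, 4 had windows in the table, 6 in all, and Srf was the gene with a box. Of the 32851 windows in the table, 535 held a box (1.63%), and of its 27025 genes, 488 had one in any window (1.81%). Of the 16 contractile target genes in the table, 2 had one (12.5%), of the 12 immediate early genes, 1 (8.33%), of the 9 cofactors and competitors of SRF, 3 (33.3%), and of the 7 genes of modulated smooth muscle, 0. A match is a description of the letters and not of binding, and no match speaks only for this exact pattern in this window.

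Myocd, the coactivator of SRF that drives the contractile genes, showed the largest difference among the 7 genes at both times against sham. It had 15, 4.59 and 6.15 CPM in the 28-day libraries (replicates 1 to 3), 48.2, 8.86 and 30.1 CPM in the 14-day libraries, and 89.7, 38.3 and 80.7 CPM in the sham libraries. All 3 libraries at 28 days lay below the lowest sham library, while 1 of the 3 at 14 days lay above it. At 28 days against sham the log2 fold change was -3.03 ± 0.72 (SE; 95% interval -4.68 to -1.38), which is 8.15-fold lower. This did not pass edgeR's quasi-likelihood test after adjustment by Benjamini-Hochberg over the 14741 genes tested (adjusted p = 0.203), and it did pass with DESeq2 (adjusted p = 0.00073). Myocd lies on chromosome 11, 65173608 to 65269989, minus strand (GRCm38.p6, Entrez 214384, ENSMUSG00000020542).

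For Myocd the 14-day mean, at 29.05 CPM, lay between 8.58 CPM at 28 days and 69.6 CPM in sham. The 14-day libraries overlapped those of both other groups. The log2 fold change was -1.26 ± 0.67 at 14 days against sham (edgeR adjusted p = 0.295). The step at 28 days against 14 days was -1.77 ± 0.69 (edgeR adjusted p = 0.77). With both times against sham it was -2.14 ± 0.55 (95% interval -3.41 to -0.87; edgeR adjusted p = 0.125, DESeq2 adjusted p = 0.0044). Of the 6 Ang II libraries, 5 lay below the lowest sham library, and the exact two-sided permutation test of 6 libraries against 3 gave p = 0.0476, where the smallest p the 84 splits can give is 0.0119. The comparisons at 28 and 14 days share the sham libraries.

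**Figure D1:**
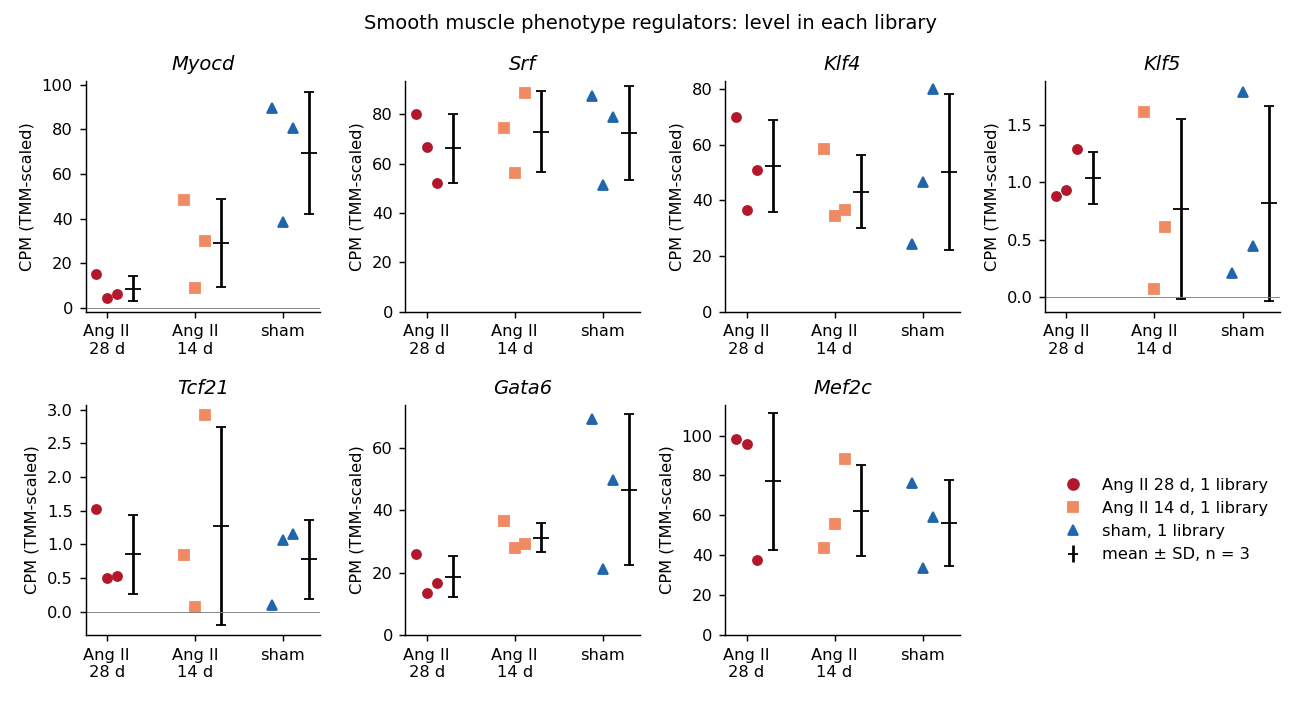
Level of each of the 7 genes in CPM (TMM-scaled), a panel per gene, with points for libraries of Ang II 28 days, Ang II 14 days and sham, and the mean ± SD of 3 libraries in black. The 28-day libraries of Myocd, at 4.59 to 15 CPM, lie below the sham libraries, at 38.3 to 89.7 CPM, while the groups of Srf, Klf4, Klf5, Tcf21 and Mef2c overlap.

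Srf, the DNA-binding partner of myocardin, stayed in a narrow range. It had 80.0, 67.0 and 52.1 CPM at 28 days, 74.5, 56.1 and 88.7 CPM at 14 days, and 87.6, 51.2 and 78.8 CPM in sham. The 3 groups overlapped almost fully, and the whole span over the 9 libraries was 0.79 log2, against 4.24 log2 for Myocd. The log2 fold change was -0.13 ± 0.27 at 28 days against sham (95% interval -0.74 to 0.49; edgeR adjusted p = 0.927) and 0.01 ± 0.27 at 14 days against sham (95% interval -0.60 to 0.63; edgeR adjusted p = 0.983). The intervals leave room for differences of up to about those bounds and do not show that the levels were equal. The sign at 14 days against sham turned without sham replicate 2 (-0.19), without 14-day replicate 1 (-0.0038) or without 14-day replicate 3 (-0.15). Srf lies on chromosome 17, 46546838 to 46558267, minus strand (Entrez 20807, ENSMUSG00000015605).

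Gata6, a factor of quiescent smooth muscle, ran the same way as Myocd over a smaller range. It had 26.2, 13.5 and 16.6 CPM at 28 days, 36.6, 28.0 and 29.2 CPM at 14 days, and 69.3, 21.1 and 49.6 CPM in sham. The 28-day libraries all lay below the 14-day libraries, but sham replicate 2, at 21.1 CPM, lay among the 28-day libraries. The log2 fold change was -1.31 ± 0.43 at 28 days against sham (95% interval -2.30 to -0.33; edgeR adjusted p = 0.244, DESeq2 adjusted p = 0.0518), -0.58 ± 0.42 at 14 days against sham (edgeR adjusted p = 0.448), and -0.74 ± 0.42 at 28 days against 14 days (edgeR adjusted p = 0.774). The exact two-sided permutation test of the 6 Ang II libraries against the 3 sham libraries gave p = 0.131. Gata6 lies on chromosome 18, 11052510 to 11085636, plus strand (Entrez 14465, ENSMUSG00000005836), and shares 93 exon bases with 1010001N08Rik on the other strand. The sources used here do not say whether the counts use strand, so reads in those bases cannot be assigned with certainty.

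Sham replicate 2 was the lowest sham library for Myocd, Srf, Gata6 and Mef2c. It was also lowest in contractile smooth muscle markers, at 10372 CPM summed, against 31822 and 22153 CPM in sham replicates 1 and 3. It was also the library with the highest nerve and Schwann cell level of the 9, at 5761 CPM summed over 10 of 10 markers, among them 1755 CPM of Dbh, the enzyme that makes noradrenaline. Over the 9 libraries, the mean log2 level of the nerve markers had r = -0.15 with Myocd, -0.34 with Srf, -0.50 with Gata6 and -0.38 with Mef2c. The part of nerve or contractile tissue in these 4 values was not tested. Without sham replicate 2, Myocd at 28 days against sham was -3.32 log2.

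Sham replicate 1 was the highest sham library for the same 4 genes, of which Myocd, Gata6 and Mef2c are also known as cardiac genes. It held 971 CPM summed over 8 cardiac muscle markers, with 7 of 8 detected, against 8.07 to 71.9 CPM in the other 8 libraries. The mean log2 level of these markers had r = 0.57 with Myocd, 0.58 with Srf, 0.68 with Gata6 and 0.35 with Mef2c. These r values, over the 9 libraries, are given as a description. For the 7 contractile smooth muscle markers r was 0.98 with Myocd, 0.67 with Srf, 0.89 with Gata6 and 0.07 with Mef2c. Without sham replicate 1, the log2 fold change of Myocd was -2.80 at 28 days and -1.04 at 14 days against sham, and that of Gata6 was -0.92 and -0.18. The part of cardiac muscle in these values was not tested.

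Klf4, known as a repressor of the contractile program after vessel injury, did not separate the groups. It had 69.7, 36.6 and 50.7 CPM at 28 days, 58.2, 34.4 and 36.5 CPM at 14 days, and 24.4, 46.4 and 79.9 CPM in sham. The lowest and the highest of the 9 libraries were both sham. The log2 fold change was 0.06 ± 0.44 at 28 days against sham (95% interval -0.96 to 1.07; edgeR adjusted p = 0.975) and -0.22 ± 0.44 at 14 days against sham (95% interval -1.24 to 0.79; edgeR adjusted p = 0.785). The signs rested on single libraries: the 14-day value was 0.33 without sham replicate 3, and the 28-day value was -0.27 without sham replicate 1 and -0.20 without 28-day replicate 1. Klf4 lies on chromosome 4, 55527137 to 55532475, minus strand (Entrez 16600, ENSMUSG00000003032).

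Klf5, a KLF factor of activated smooth muscle and of epithelia, was read only 103 times in all 9 libraries. Its counts were 8, 13 and 17 at 28 days, 23, 1 and 9 at 14 days, and 2, 25 and 5 in sham. The groups overlapped, and the mean was 1.03 ± 0.225 CPM at 28 days, 0.765 ± 0.781 CPM at 14 days and 0.815 ± 0.850 CPM in sham (SD, n = 3 each). The log2 fold change was 0.31 ± 1.01 at 28 days against sham (edgeR adjusted p = 0.948), with a 95% interval from -2.02 to 2.64 that excludes little. The 4 libraries with most Klf5 (sham replicate 2, 14-day replicate 1 and 28-day replicates 3 and 2, at 1.79, 1.61, 1.29 and 0.93 CPM) were also the 4 with the highest nerve and Schwann cell level, at 8.27, 7.11, 6.17 and 7.12 mean log2 CPM, against 0.55 to 4.44 in the other 5. Over the 9 libraries, log2 CPM of Klf5 had r = 0.80 both with the mean level of the nerve markers and with that of 9 mesothelial markers. The mesothelial markers summed to only 12.7 to 13.8 CPM at 28 days, 2.95 to 17.7 CPM at 14 days and 5.97 to 16.4 CPM in sham, and 4 of the 9 passed the low-count filter. Of these sums, Gpm6a alone made up 10.8, 13.4 and 9.39 CPM in sham replicate 2, 14-day replicate 1 and 28-day replicate 2. It had 2.16 to 8.76 CPM in the other libraries. Whether the r values with the nerve and mesothelial markers are separate was not tested. The part of either tissue in the Klf5 counts was not tested. Klf5 lies on chromosome 14, 99298691 to 99313412, plus strand (Entrez 12224, ENSMUSG00000005148).

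Tcf21, which marks the shift of smooth muscle cells towards a fibroblast-like state in mouse atheroma and is also a gene of fibroblasts, was close to the lower limit of these libraries with 113 counts in all. Its counts were 14, 7 and 7 at 28 days, 12, 1 and 43 at 14 days, and 1, 15 and 13 in sham. The 14-day group held both the lowest library, equal in count to sham replicate 1, and the highest. The log2 fold change was 0.09 ± 1.18 at 28 days against sham (edgeR adjusted p = 0.986) and 0.69 ± 1.16 at 14 days against sham (edgeR adjusted p = 0.751), and the 14-day value was -0.77 without 14-day replicate 3. The 95% interval at 28 days against sham was -2.63 to 2.81, and the biological coefficient of variation, the spread between libraries beyond counting error, was 93.6% for Tcf21 and 81.7% for Klf5. Tcf21 lies on chromosome 10, 22817263 to 22820143, minus strand (Entrez 21412, ENSMUSG00000045680).

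Mef2c had 98.1, 95.9 and 37.5 CPM at 28 days, 43.8, 55.5 and 88.1 CPM at 14 days, and 76.3, 33.6 and 59.0 CPM in sham. The 3 highest libraries were 28-day replicates 1 and 2 and 14-day replicate 3, and 28-day replicate 3 lay next to the lowest, sham replicate 2. The log2 fold change was 0.45 ± 0.45 at 28 days against sham (95% interval -0.59 to 1.501; edgeR adjusted p = 0.784) and 0.15 ± 0.45 at 14 days against sham (edgeR adjusted p = 0.859). Markers of tissues that use MEF2C varied among these libraries. The 12 skeletal muscle markers summed to 18520 and 6249 CPM in 28-day replicates 1 and 2 and to 133 CPM in replicate 3, and the 8 B and plasma cell markers to 1359 CPM in 14-day replicate 3 and 1366 CPM in 28-day replicate 2, against 8.63 to 261 CPM in the other 7 libraries. The 9 endothelial markers were highest in 28-day replicate 1, at 1920 CPM, and in 14-day replicate 1, at 1878 CPM, where Mef2c had 43.8 CPM. Over the 9 libraries r with Mef2c was 0.55 for skeletal muscle, 0.45 for B cell and 0.40 for endothelial markers, and the part of these tissues was not tested. Without 28-day replicates 1 and 2, Mef2c at 28 days against sham was -0.59 ± 0.57 (edgeR adjusted p = 1), with a single 28-day library assumed to vary like the others. Mef2c lies on chromosome 13, 83504017 to 83667079, plus strand (Entrez 17260, ENSMUSG00000005583).

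**Figure D2:**
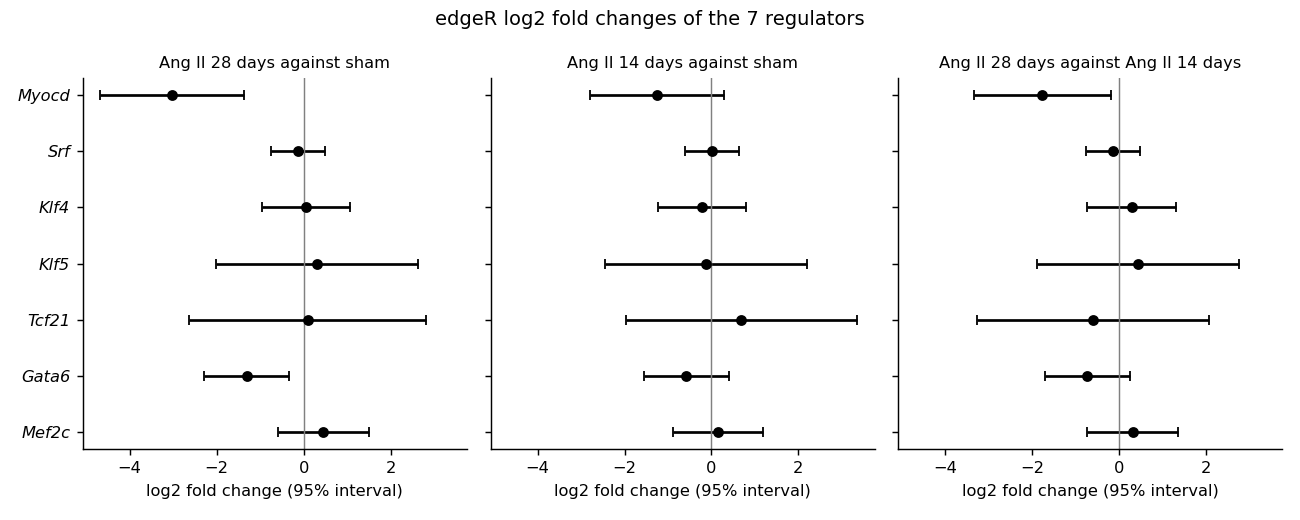
Log2 fold change of each of the 7 genes by edgeR with its 95% interval, for 28 days against sham, 14 days against sham and 28 days against 14 days. At 28 days against sham the interval of Myocd (-4.68 to -1.38) and that of Gata6 (-2.30 to -0.33) lie below 0, and the intervals of Klf5 and Tcf21 are the widest.

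By edgeR, 0 of the 7 genes passed in any of the 4 comparisons (28 days against sham, 14 days against sham, 28 days against 14 days, and both times against sham). This stands beside 0% of the 14741 genes tested in each of them. At an unadjusted p under 0.05 there were 2 of 7 at 28 days against sham (Myocd and Gata6, both lower), where 13.9% of all genes tested were called and 5.89% were called lower. There were 0 of 7 at 14 days against sham, beside 23.5% of all genes, 1 of 7 at 28 days against 14 days (Myocd, lower), beside 6.13% and 2.27% lower, and 2 of 7 with both times against sham (Myocd and Gata6, lower), beside 21.5% and 10.1% lower. DESeq2 called 1 of 7 at 28 days against sham, beside 6.68% of its tested genes and 2.66% lower, and 1 of 7 with both times against sham, beside 11.5% and 3.94% lower, Myocd in each case. It called 0 of 7 in the other comparisons, beside 12.5% at 14 days against sham and 0.789% at 28 days against 14 days, and limma-voom called 0 of 7 in all 4, beside 0% of genes. Groups that did not overlap were seen for Myocd alone at 28 days against sham, lower, where 21.7% of all genes tested did not overlap and 9.46% were lower in this way, and for Gata6 alone at 28 days against 14 days, lower, beside 10.1% and 5.71% lower. At 14 days against sham no member had groups that did not overlap, where 26.1% of genes did, and none with both times against sham, where 12.5% did. The members' counts were not tested against these shares. The median log2 fold change of the 7 was 0.06 at 28 days against sham and -0.12 at 14 days against sham, beside -0.08 and -0.07 over all genes tested.

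Between genes, levels were set per kilobase of exon, from the union of exons in GENCODE M21. This understates a gene with a long annotated transcript set such as Mef2c, at 15715 exon bases. Per length, Srf and Klf4 stood first and second in all 3 groups. Srf had 22.9 ± 4.83 CPM per kilobase at 28 days, 25.3 ± 5.64 at 14 days and 25.1 ± 6.56 in sham, and Klf4 had 17.2 ± 5.45, 14.1 ± 4.32 and 16.5 ± 9.17 in the same groups (SD, n = 3 each). The libraries of Srf and Klf4 did not overlap at 14 days and overlapped at 28 days and in sham. Myocd stood at place 5 of 7 at 28 days with 1.34 ± 0.87 CPM per kilobase, at place 4 at 14 days with 4.52 ± 3.07, and at place 3 in sham with 10.8 ± 4.27. In sham it overlapped its neighbours Klf4 above and Gata6 below. At 28 days it overlapped Gata6 above it, at 2.89 ± 1.01, and not Tcf21 below it, at 0.36 ± 0.25. Tcf21 and Klf5 stood last in every group and overlapped each other in every group.

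The level of Myocd followed that of the contractile genes from library to library. The difference between log2 CPM of Myocd and the mean log2 CPM of 7 contractile genes (Acta2, Myh11, Tagln, Cnn1, Smtn, Myl9 and Lmod1) was -5.28 ± 0.34 at 28 days, -5.04 ± 0.15 at 14 days and -4.70 ± 0.28 in sham (SD, n = 3 each). It spanned 1.10 log2 over the 9 libraries, where Myocd itself spanned 4.24. For Gata6 the same difference spanned 1.96 log2, and Gata6 itself 2.34. For Srf the difference spanned 3.27 log2, against 0.79 for Srf itself, and was -2.19 ± 0.64 at 28 days, -3.43 ± 0.93 at 14 days and -4.58 ± 0.48 in sham. The spans of Klf4, Mef2c, Klf5 and Tcf21 were also wider relative to the contractile genes (4.97, 3.99, 5.88 and 5.30 log2) than on their own (1.71, 1.54, 3.08 and 3.74 log2).

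**Figure D3:**
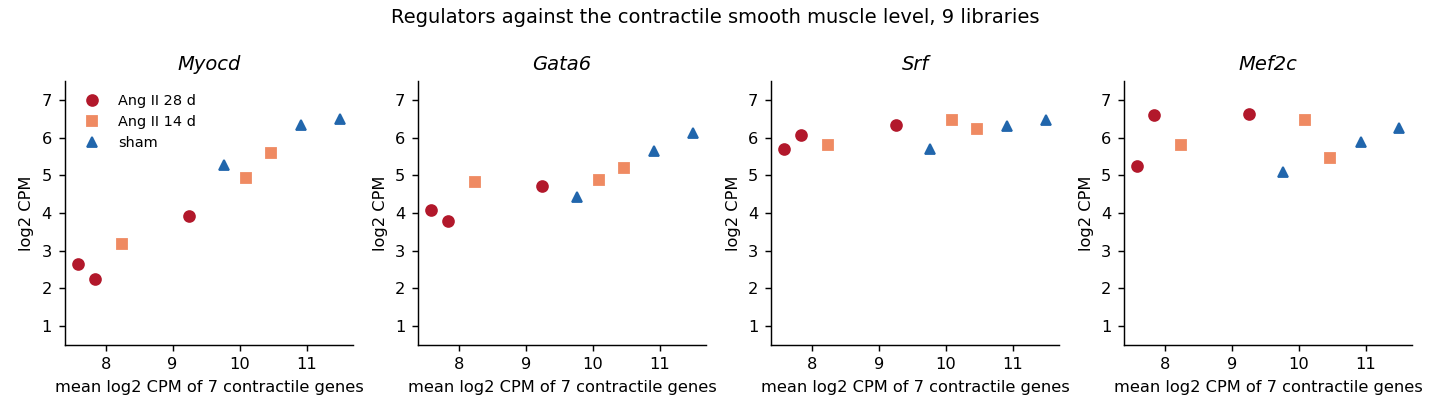
Level of Myocd, Gata6, Srf and Mef2c (log2 CPM, vertical axis) against the mean log2 CPM of 7 contractile genes (horizontal axis), a point per library of Ang II 28 days, Ang II 14 days and sham. Myocd spans 4.24 log2 along a line with the contractile genes, while Srf spans 0.79 log2.

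The level of the other factors relative to Myocd within a library was also set out by group. Since these ratios are not per length, only their differences between groups are read. Srf spanned 0.79 log2 over the 9 libraries and Myocd 4.24, so the ratio of Srf mostly restates the level of Myocd. It is not a separate result, and the share of all genes that separate in this way was not computed. Log2 CPM of Srf minus that of Myocd was 2.403, 3.82 and 3.05 in 28-day replicates 1 to 3, 0.63, 2.64 and 1.55 in 14-day replicates 1 to 3, and -0.03, 0.42 and -0.03 in sham replicates 1 to 3. All 6 Ang II libraries lay above the highest sham library. For Klf4 minus Myocd the values were 2.21 to 3.01 at 28 days, 0.27 to 1.94 at 14 days and -1.87 to 0.28 in sham, so that the 28-day libraries lay above the others and the 14-day and sham libraries overlapped slightly. For Mef2c minus Myocd they were 2.58 to 4.34 at 28 days, -0.14 to 2.63 at 14 days and -0.45 to -0.19 in sham. For Gata6 minus Myocd they were 0.80 to 1.53 at 28 days, -0.40 to 1.64 at 14 days and -0.86 to -0.37 in sham. At 14 days, replicate 2 had the highest of these 4 ratios in its group. That library had 304 CPM of Myh11, smooth muscle myosin, against 2679 and 1795 CPM in 14-day replicates 1 and 3, and 13307 CPM summed over 10 macrophage and monocyte markers, against 2364 and 2599 CPM. The part of these cells in the ratios was not tested.

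**Figure D4:**
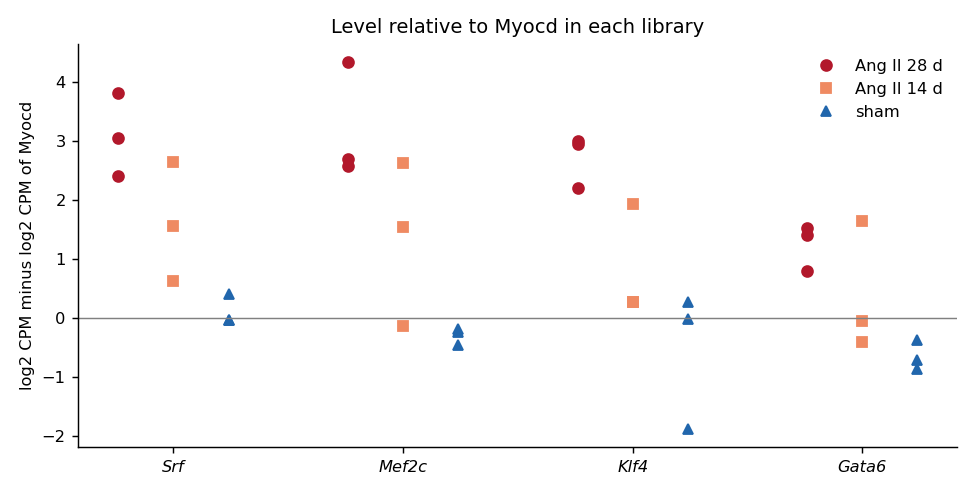
Log2 CPM of Srf, Mef2c, Klf4 and Gata6 minus log2 CPM of Myocd in the same library, a point per library of Ang II 28 days, Ang II 14 days and sham. The 28-day values of Srf, at 2.403 to 3.82, lie above those of sham, at -0.03 to 0.42.

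Over the 9 libraries, the genes with the pattern most like each member were taken as the 3 with the highest Pearson r of log2 CPM among about 10740 tested genes with a mean of at least 10 CPM. They are given as a description, over libraries that also differ in depth and tissue. For Myocd these were Pls3, Myl9 and Pcp4l1 (r = 0.994, 0.988 and 0.987). For Gata6 they were Mical2, Plekhg3 and Tead3 (r = 0.991, 0.985 and 0.984). For Srf they were Srcap, Upf2 and Toe1 (r = 0.942, 0.912 and 0.911), for Klf4 Bag5, Sorcs2 and Spop (r = 0.954, 0.938 and 0.935), and for Mef2c Zfp84, Ptp4a3 and Hdac10 (r = 0.966, 0.922 and 0.914). For Klf5 they were Tril, Hspa12a and Armh4 (r = 0.979, 0.967 and 0.957), and for Tcf21 Plcg1, Mthfd1 and Rprd1b (r = 0.966, 0.944 and 0.932), both on few counts. Among the 21 pairs of members, Myocd and Gata6 had the highest r over the libraries (0.864), followed by Srf and Mef2c (0.717). For deviations from the group means the order differed, with 0.822 for Srf and Mef2c, 0.763 for Myocd and Srf, 0.745 for Srf and Gata6 and 0.708 for Myocd and Gata6.

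The genes that work with these factors were taken from lists written from general knowledge, with earlier results of these data known. Genes named below, apart from Elk1, Mrtfa, Mrtfb, Tpm2, Des, Casq2, Mrc1 and Cd14, were chosen by their smallest p with both times against sham. Their p-values are thus no independent support. By edgeR 0 genes of any of these lists passed in any comparison, and the counts below are at an unadjusted p under 0.05 and by DESeq2. Over all genes tested at 28 days against sham, 7.96% were higher and 5.89% lower at an unadjusted p under 0.05, and by DESeq2 4.03% were higher and 2.66% lower. At 14 days against sham 13.1% were higher and 10.4% lower, and by DESeq2 8.27% were higher and 4.2% lower. The lists' counts were not tested against these shares. Among 12 cofactors and competitors of SRF, 2 were higher and 5 lower at 28 days against sham (DESeq2 called 0 and 3), and 4 were higher and 0 lower at 14 days against sham (DESeq2 3 and 0). Elk3, an ETS factor that competes with myocardin for SRF, had 83.5, 75.5 and 79.9 CPM at 28 days, 75.1, 135 and 77.4 CPM at 14 days, and 46.3, 43.8 and 48.9 CPM in sham (log2 0.92 ± 0.21 with both times against sham, edgeR adjusted p = 0.125, DESeq2 adjusted p = 0.00269). Every Ang II library lay above every sham library, where 12.5% of all genes tested did not overlap either way. Elk3 was highest in 14-day replicate 2, which also had most macrophage marker RNA (13307 CPM summed), and the part of these cells was not tested. Elk1, of the same list, had 17.2, 14.55 and 15.2 CPM at 28 days, 20.9, 19.0 and 17.9 CPM at 14 days, and 18.2, 20.5 and 22.4 CPM in sham. With both times against sham, 6 of the 12 log2 fold changes were positive and 6 negative. Csrp2, a LIM protein that bridges SRF and GATA factors, had 182, 85.4 and 99.2 CPM at 28 days, 249, 177 and 342 CPM at 14 days, and 888, 223 and 584 CPM in sham (log2 -2.21 ± 0.54 at 28 days against sham, edgeR adjusted p = 0.205, DESeq2 adjusted p = 0.0018). The myocardin relatives differed from Myocd in their values: Mrtfb had 40.8 ± 7.83 CPM at 28 days, 41.0 ± 3.599 CPM at 14 days and 39.2 ± 13.4 CPM in sham, and Mrtfa had 50.2 ± 11.8, 79.9 ± 26.2 and 38.3 ± 10.8 CPM in the same groups (SD, n = 3 each). Whether their changes differ from that of Myocd was not tested.

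SRF serves both contractile and immediate early genes, and these lists differed in their medians. Of the 21 contractile targets, 13 were lower and 0 higher at 28 days against sham at an unadjusted p under 0.05 (DESeq2 12 and 0), with a median log2 fold change of -1.88 beside -0.08 over all genes, and 1 was lower and 0 higher at 14 days against sham, with a median of -0.87 beside -0.07. At 28 days against sham 19 of the 21 log2 fold changes were negative and 2 positive. The positive ones were Des, with 869, 300 and 62.5 CPM in 28-day replicates 1 to 3, and Casq2, with 39.6, 13.1 and 3.49 CPM. Tpm2, among the negative ones, had 1597, 566 and 131 CPM there. Skeletal muscle markers summed to 18520, 6249 and 133 CPM in those libraries, and their part in this list was not tested. Of the 16 immediate early targets tested, 1 was lower and 1 higher at 28 days against sham (median -0.02), and 0 lower and 4 higher at 14 days against sham (median 0.75; DESeq2 2 higher). Myl9, a myosin light chain whose promoter window holds a CArG box, had 626, 235 and 234 CPM at 28 days, 1587, 342 and 1163 CPM at 14 days, and 3307, 1002 and 2147 CPM in sham. Egr2, the immediate early gene shown with a CArG box, had 5.36, 8.03 and 4.78 CPM at 28 days, 4.76, 10.4 and 6.92 CPM at 14 days, and 1.92, 3.08 and 3.56 CPM in sham. Thus all 6 Ang II libraries were above sham for Egr2, where 12.5% of all genes tested did not overlap either way. All 3 libraries at 28 days were below sham for Myl9, where 9.46% of all genes tested were lower in this way. Of the 16 log2 fold changes of the immediate early list, 7 were positive and 9 negative at 28 days against sham. With both times against sham 11 were positive and 5 negative. Summed, the 10 macrophage markers were also above sham in all 6 Ang II libraries. The sums were 2197 to 3704 CPM at 28 days, 2364 to 13307 CPM at 14 days and 364 to 1563 CPM in sham. Singly, Mrc1 and Cd14 overlapped sham. The summed macrophage markers were highest in 14-day replicate 2, the library with most Egr2, and their part in the level of Egr2 was not tested. For Egr2 the log2 fold change was 1.22 ± 0.37 with both times against sham (edgeR adjusted p = 0.137, DESeq2 adjusted p = 0.0262). For Myl9 it was -2.56 ± 0.72 at 28 days against sham (edgeR adjusted p = 0.217, DESeq2 adjusted p = 0.00417).

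Genes of modulated smooth muscle cells, which KLF4 and TCF21 are known to accompany, had positive medians against sham at both times. Of the 17 tested, 4 were higher and 0 lower at 28 days against sham at an unadjusted p under 0.05 (median log2 0.74; DESeq2 1 higher), and 12 were higher and 0 lower at 14 days against sham (median 1.25; DESeq2 8 higher). At 28 days against 14 days 0 were higher and 4 lower (median -1.09). Over all genes tested in that comparison, 6.13% were called either way and 2.27% were lower (median -0.05). Fibroblasts and macrophages also express many of these genes. Of their markers, 8 adventitial fibroblast markers, 3 of which the list also holds, summed to 2088 to 4370 CPM at 28 days, 2839 to 4332 CPM at 14 days and 1526 to 2641 CPM in sham, and the macrophage markers had the sums given above. Their part in the list was not tested.

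The relatives of the members were counted in the same way. Of 12 other KLF factors tested, 1 was lower and 0 higher at 28 days against sham (median log2 -0.14) and likewise at 14 days against sham (median 0.01), and DESeq2 called 0 in each. Of 7 MEF2 and GATA relatives, 0 passed an unadjusted p under 0.05 in any comparison, and their median was -0.23 at both times against sham taken apart. Of 13 relatives and partners of Tcf21, 1 was lower and 3 higher at 28 days against sham (median -0.45) and 0 lower and 2 higher at 14 days against sham (median -0.17), and DESeq2 called 0 in each. Of 23 other regulators of smooth muscle, 6 were lower and 1 higher at 28 days against sham (DESeq2 5 and 0) and 3 lower and 3 higher at 14 days against sham (DESeq2 1 and 1). Tead3, a TEAD factor of the Hippo pathway, was among the lower ones, with 23.6, 11.4 and 14.5 CPM at 28 days, 39.9, 35.7 and 30.8 CPM at 14 days, and 100, 26.3 and 61.8 CPM in sham (log2 -1.93 ± 0.48 at 28 days against sham, edgeR adjusted p = 0.206, DESeq2 adjusted p = 0.00401).

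**Figure D5:**
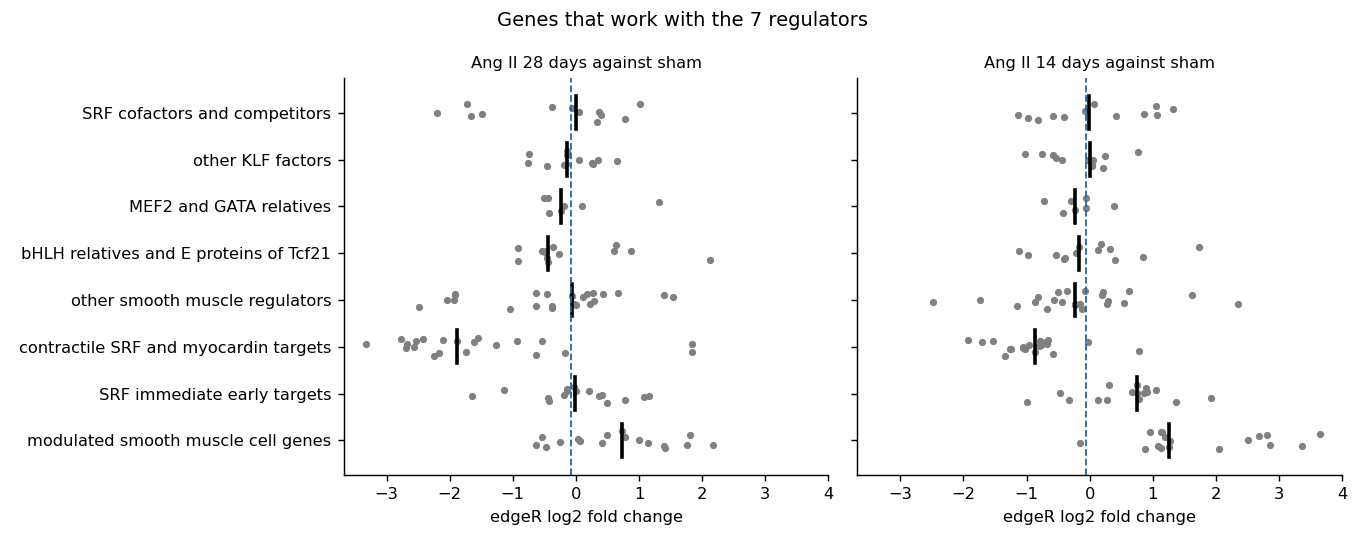
Log2 fold change by edgeR of each tested gene (grey points) in 8 lists of genes that work with the 7 factors, at 28 days and at 14 days against sham, with the median of each list as a black bar and the median of all genes tested as a dashed line. The contractile targets have a median of -1.88 at 28 days and -0.87 at 14 days, and the modulated smooth muscle cell genes 0.74 and 1.25.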

How the data were processed

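Expected counts per gene, 1 file per library, were deposited by the authors. The tools named per the submitters' processing notes are RSEM 1.3.1, HISAT2 2.2.1 and Bowtie2 2.4.5, with the build GRCm38.p6; the sources used here give neither their roles nor the strandedness. Such estimated counts can be split between similar genes, and 9.77% to 11.0% of genes per library were not whole numbers (exactly, with no tolerance). Counts were rounded. Entrez IDs were matched to the RefSeq gene table of GRCm38.p6 (18775 of 18830 matched). After edgeR's filterByExpr 14741 genes were tested, with all 7 members among them. TMM scaling and edgeR 4.0.16 quasi-likelihood (R 4.3.3, robust) with 1 coefficient per group over 9 libraries were used, with Benjamini-Hochberg adjustment over all genes at 0.05. The SE is the log2 fold change over the square root of F. The biological coefficient of variation was 51.3%. DESeq2 1.42.0 and limma 3.58.1 (voom) were alternatives. Log2 CPM used a prior count of 2. Promoters are those of RefSeq. The members and lists were chosen with earlier results of these data known. The rule for naming took all 7 members, up to 4 genes per list with the smallest p with both times against sham, and the 3 most alike genes per member. Elk1, Mrtfa, Mrtfb, Tpm2, Des, Casq2, Mrc1, Cd14, Gpm6a and Myh11 were chosen after their values were seen. Nothing in the labels says that the libraries came from separate animals, so p-values measure the spread between these libraries. An exact test of 3 against 3 cannot go under 0.1. The method was tested on simulated data.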

Additional observations from a re-analysis of the deposited data

How the results depend on the processing

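Of 488 values of the 7 members under other settings, 444 kept their sign and their side of the threshold, 42 changed sign and 2 passed. Those that passed were Myocd by DESeq2, at -3.02 at 28 days and -2.13 with both times against sham. For DESeq2 the count of members called was 1 in those comparisons, and that of all genes was 996 at 28 days, 1902 at 14 days, 126 at 28 against 14 days and 1761 with both times against sham, where edgeR called 0. edgeR called 1 gene with the replicate block, with the compared groups alone, and without the 2 libraries rich in skeletal muscle (the last chosen after seeing the data) at 14 days, and 1 with the block or without those libraries with both times against sham. Leaving out each library, it called 0 to 7 genes at 28 days (7 without 28-day replicate 3, 5 without sham replicate 2) and 0 to 5 with both times against sham (5 without sham replicate 2). The replicate numbers gave no clear sign of pairing (same-numbered correlations -0.55 to 0.65, 3 of 9 libraries closest to their own number). The libraries also differ in tissue, so this check cannot exclude a shared batch or day. With the replicate block Myocd was -3.11 at 28 days against sham.

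Signs of members turned as follows. With limma-voom, Tcf21 was 0.15 at 28 against 14 days and Klf4 0.019 with both times. Without the 3 nerve-rich libraries, also chosen after seeing the data, at 14 days Srf was -0.17 and Klf5 0.051, and Mef2c was -0.026 at 28 days and -0.15 at 28 against 14 days. Without the 2 libraries rich in skeletal muscle, Tcf21 was -0.56 and Mef2c -0.59 at 28 days, and Mef2c was -0.74 at 28 against 14 days and -0.22 with both times. The cause was not tested.

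Leaving out each library, the ranges at 14 days against sham were -0.19 to 0.19 for Srf, -0.55 to 0.33 for Klf4, -1.25 to 1.18 for Klf5, -0.77 to 1.25 for Tcf21 and -0.18 to 0.43 for Mef2c. At 28 days against sham they were -0.33 to 0.045 for Srf, -0.27 to 0.61 for Klf4, -0.12 to 1.61 for Klf5 and -0.60 to 0.51 for Tcf21. At 28 against 14 days they were -0.30 to 0.023 for Srf, -0.10 to 1.56 for Klf5 and -1.29 to 0.87 for Tcf21. With both times they were -0.26 to 0.10 for Srf, -0.41 to 0.47 for Klf4, -0.47 to 1.39 for Klf5 and -0.34 to 0.80 for Tcf21. Myocd kept its sign there, at -3.70 to -2.72 at 28 days and -1.84 to -0.81 at 14 days, as did Gata6, at -1.67 to -0.92 and -0.93 to -0.18. Without the 3 nerve-rich libraries Myocd was -3.05 at 28 days, -2.11 at 14 days (edgeR adjusted p = 0.157) and -0.94 at 28 against 14 days. The 2 planned fits to FPKM values were not run, since the files used here hold counts. Klf5 and Tcf21 dropped out under the filter of at least 5 CPM in 3 libraries. Their counts of 1 to 43 per library are low, and the spread between libraries was also wide.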
